A study of Mus musculus with 19 samples.

Results

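Mitochondrial respiratory complex I is the entry point of electrons from NADH into the respiratory chain, and it pumps protons across the inner mitochondrial membrane while it passes those electrons to ubiquinone. The complex is built from catalytic core subunits, from accessory subunits that stabilise it, and with the help of assembly factors that do not stay in the finished enzyme. Most of its parts are encoded in the nucleus by genes whose names start with Nduf, the rest by the mitochondrial genome, and in the arterial wall it serves the ATP supply of vascular smooth muscle cells (VSMCs). The genes described here are the nuclear ones, chosen by name: of 50 rows of the gene table whose name starts with Nduf, 3 names that hold -ps were left out (the processed pseudogenes Ndufa12-ps and Ndufs5-ps, and Ndufb1-ps, whose biotype in the table is partly protein coding) and 1 (Ndufs6b, a processed pseudogene) did not reach a normalized count of 10 in 4 mice, which left 46 genes of 14845 tested and of 20408 in the table. They are 7 core subunits, 29 accessory subunits, 8 assembly factors (Ndufaf1 to Ndufaf8), and Ndufa4 and its relative Ndufa4l2, which were counted apart because the Ndufa4 protein is now placed in complex IV.

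The measurements are bulk RNA-Seq profiles of the suprarenal abdominal aorta from 19 male ApoE-/- mice, 24 h after pumps began to deliver saline or Ang II. The labels put the dose between 500 and 1000 ng per minute and kg and the study's methods put it at 1000 for these libraries; the mice were on regular chow, and the 8 weeks of age in the labels is, by the methods, the age at tamoxifen, which preceded the pumps. IKKβ is a kinase of the NF-κB pathway. All mice carried SMA-CreERT2, a tamoxifen-inducible Cre driven by the promoter of the smooth muscle actin gene, and received tamoxifen; the IKKβ-/- mice also carried 2 floxed Ikbkb alleles and the IKKβ+/+ mice did not. There were 5 IKKβ+/+ mice with saline, 5 IKKβ+/+ mice with Ang II, 4 IKKβ-/- mice with saline and 5 IKKβ-/- mice with Ang II, each a separate animal. Each group has its own block of mouse numbers, so the order in which the mice were bred or handled cannot be told apart from the groups.

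Between 11382573 and 19906694 reads on genes stand behind each mouse. Ikbkb, the targeted gene, had 594 to 791 normalized counts in IKKβ+/+ saline mice and 439 to 586 in IKKβ-/- saline mice (log2 difference -0.39, SE 0.12, limma adjusted p = 0.0988), and with Ang II 685 to 779 against 430 to 672 (log2 difference -0.42, SE 0.12, adjusted p = 0.173), so the groups did not overlap at either treatment. The 8 smooth muscle markers (Acta2, Myh11, Tagln and others) summed to between 319538 and 659899 in every mouse, so the labelled tissue holds abundant smooth muscle. The share of normalized counts on the mitochondrial genome was 5.99% to 9.07% in IKKβ+/+ saline mice, 10.1% to 14.1% in IKKβ+/+ Ang II mice, 8.89% to 38.7% in IKKβ-/- saline mice and 7.88% to 37.2% in IKKβ-/- Ang II mice. X2406 and X2385 held the largest shares. In a bulk sample, fewer cells of a type and less RNA per cell cannot be told apart.

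The transcripts of these genes are short: the median length was 865.75 nt, against 2624 nt over the genes tested, and 44 of the 46 were shorter than that median. A length slope was therefore taken for each mouse (the slope of a gene's log2 deviation from its mean over mice on log2 transcript length, over all tested genes). It is given beside the results it moves with.

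Promoters are shown because nuclear genes of the respiratory chain are known targets of the factors NRF1, YY1, ETS family members and ERR. RefSeq promoter windows (GRCm38.p6, 250 bases before to 50 after the start) were found for 40 of the 46 genes. The NRF1 motif GCGCATGCG was present in 4 of the 40 (10%, against 1.95% of 27025 genes with a window), and the YY1 motif AAGATGGCG in 6 of the 40 (15% against 1.64%), both searched on either strand. ETS motifs (CCGGAAG) were present in 15% against 9.93%, ERR motifs (AAGGTCA) in 7.5% against 5.38%, and the E-box CACGTG in 5% against 8.09%. At least 1 of the 5 motifs was in 50% of the members and in 23.8% of all genes. The background of 27025 genes includes genes that were not tested here. Below are the 30 bases around each NRF1 and YY1 match, 5′ to 3′ on the gene's strand, and those around both ETS matches of Ndufs3, the core subunit with the smallest p in any comparison; the capitals mark the match, which is a description of letters and not a binding site.
Ndufa8 (NRF1, chr2:36049328-36049357, minus strand): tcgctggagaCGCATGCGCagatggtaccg
Ndufa11 (NRF1, chr17:56717692-56717721, plus strand): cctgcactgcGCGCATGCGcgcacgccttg
Ndufaf4 (NRF1, chr4:24897960-24897989, plus strand): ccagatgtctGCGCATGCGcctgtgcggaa
Ndufaf5 (NRF1, chr2:140170652-140170681, plus strand): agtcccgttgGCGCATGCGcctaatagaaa
Ndufa9 (YY1, chr6:126849096-126849125, minus strand): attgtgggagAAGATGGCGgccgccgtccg
Ndufaf8 (YY1, chr11:120098934-120098963, plus strand): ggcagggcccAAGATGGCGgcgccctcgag
Ndufc1 (YY1, chr3:51408914-51408943, minus strand): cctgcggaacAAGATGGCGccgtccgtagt
Ndufs4 (YY1, chr13:114388045-114388074, minus strand): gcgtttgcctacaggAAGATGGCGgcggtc
Ndufs6 (YY1, chr13:73328433-73328462, minus strand): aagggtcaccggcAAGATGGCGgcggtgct
Ndufs7 (YY1, chr10:80249463-80249492, plus strand): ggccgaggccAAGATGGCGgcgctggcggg
Ndufs3 (ETS, chr2:90904730-90904759, minus strand): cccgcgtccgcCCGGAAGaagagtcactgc
Ndufs3 (ETS, chr2:90904702-90904731, minus strand): gcacatttccaCTTCCGGtccgtgcccttg
All 6 YY1 matches were in the same orientation as the gene and began between base 11 (Ndufaf8) and base 36 (Ndufs4) after the start.

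Per length, the members differed widely in level. Ndufa4 was the highest, at a mean of 3385 normalized counts per kb over the 19 mice, followed by Ndufa6, an accessory subunit of the peripheral arm, at 2067 and Ndufv3 at 1415. The core subunits lay close together, from 385 per kb for Ndufs1, the largest of them, to 877 for Ndufv2. Assembly factors were lower, from 44.2 per kb for Ndufaf6 to 256 for Ndufaf2. Ndufb4 was the lowest at 16.5 per kb, with 3.98 to 37.9 normalized counts a mouse. Its fitted changes lay on either side of 0 in different comparisons, with an SE of at least 0.53.

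**Figure D1:**
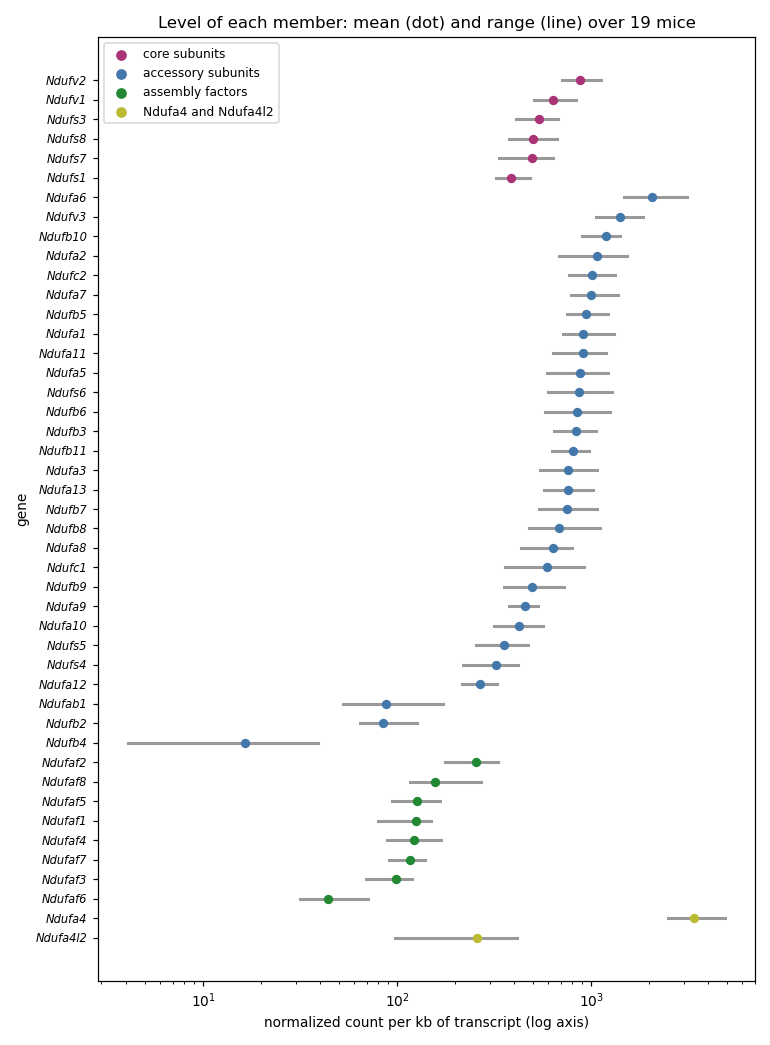
Mean level (dot) and range over 19 mice (line) of 45 of the 46 genes, in normalized counts per kb of transcript on a log axis, coloured by role. Core subunits lie between 385 and 877 per kb, assembly factors between 44.2 and 256, and Ndufb4 stands apart at 16.5.

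The question put by the saline groups is whether the level of these genes differs with IKKβ before Ang II is given. In saline-treated mice 5 of the 46 genes were higher in IKKβ-/- than in IKKβ+/+ aortas and none was lower (by limma, at an adjusted p below 0.1 and over 1.2-fold). These were Ndufs3, Ndufa2, Ndufa5, Ndufa13 and Ndufc1. The IKKβ+/+ saline mice of this comparison are also the controls of the comparison with Ang II in IKKβ+/+ mice. Over all genes tested 5.47% passed in either direction and 3.4% passed as higher, against 10.9% of the members. The log2 difference was above 0 for 43 of the 46 genes (47.6% of all genes), with a median of 0.28 against -0.02 over all genes, and 21 of the 46 had an unadjusted p under 0.05 (19.2% of all genes). In 15 of the 46, the values of the 2 groups did not overlap, all 15 with the IKKβ-/- mice higher; 8.76% of all genes had groups that did not overlap.

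Ndufs3 is a core subunit of the arm that carries electrons to ubiquinone. The gene (ENSMUSG00000005510.9) lies at chr2:90894634-90904827 in GRCm38. It had 528, 530, 428, 522 and 469 normalized counts in the IKKβ+/+ saline mice and 599, 710, 688 and 620 in the IKKβ-/- saline mice. The groups did not overlap, and the log2 difference was 0.40 (SE 0.10, adjusted p = 0.0547), a 1.32-fold difference.

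Ndufa2 (ENSMUSG00000014294.4), an accessory subunit of the NADH-binding part of the peripheral arm, had 519, 575, 392, 451 and 438 counts against 688, 852, 733 and 594. It had the largest difference of the 46 genes in this comparison (log2 difference 0.59, SE 0.16, adjusted p = 0.0615), and every IKKβ-/- mouse lay above every IKKβ+/+ mouse. Ndufc1 (ENSMUSG00000037152.11, chr3:51404677-51408988), a small subunit of the membrane arm, had 371, 447, 282, 364 and 380 counts against 461, 718, 553 and 451 (log2 difference 0.55, SE 0.16, adjusted p = 0.0711). X2403 held the highest Ndufc1 value of all 19 mice and X2373 the lowest.

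Ndufa13 (ENSMUSG00000036199.9), also known as GRIM-19 and needed for assembly of the complex, had 872, 973, 752, 911 and 802 counts against 1113, 1282, 1077 and 1104 (log2 difference 0.41, SE 0.12, adjusted p = 0.0718). Ndufa5 (ENSMUSG00000023089.12, chr6:24518666-24528013), an accessory subunit of the peripheral arm, had 471, 511, 352, 402 and 452 counts against 547, 659, 690 and 568 (log2 difference 0.50, SE 0.15, adjusted p = 0.0834). Both were higher in all 4 IKKβ-/- mice than in any of the IKKβ+/+ mice.

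By role, 1 of 7 core subunits, 4 of 29 accessory subunits, 0 of 8 assembly factors and neither of Ndufa4 and Ndufa4l2 passed, with median log2 differences of 0.23, 0.29, 0.27 and 0.22. Among the other core subunits, Ndufs7, which helps to form the ubiquinone site, was at 0.37 (SE 0.13, adjusted p = 0.124) and Ndufv2, an iron-sulfur subunit, at 0.33 (SE 0.12, adjusted p = 0.131). Ndufv1, which binds NADH, was at 0.23 (SE 0.11) and Ndufs8 at 0.16 (SE 0.12). Ndufs1, the longest of the core transcripts, was at 0.04 (SE 0.12). Ndufa4 was at 0.33 (SE 0.15, adjusted p = 0.25) and Ndufa4l2, a paralog induced in hypoxia, at 0.12 (SE 0.30). The 3 genes below 0 were Ndufb4 (-0.15), Ndufaf1 (-0.06) and Ndufv3 (-0.01), each by less than its SE.

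The number passing varied with the mouse left out. It was 0 without X2373, X2403 or X2406, 1 without X2370 or X2376, and 2 without X2378. It was 3 without X2401 and 7 without X2409. The share of all genes passing in these fits is not given, so the counts have no background to be read against. The median stayed between 0.20 and 0.31 whichever mouse was left out.

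**Figure D2:**
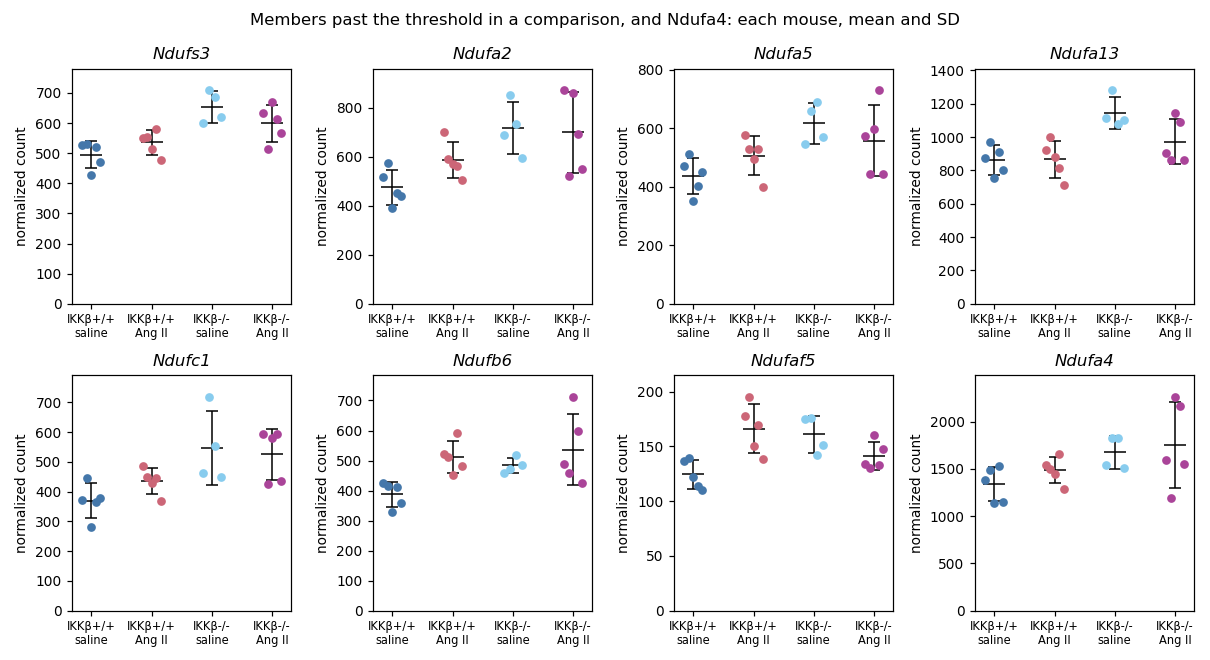
Normalized counts of the 7 genes that passed in a comparison, and of Ndufa4, in each mouse (points), with the mean and SD of each group (bars). The IKKβ+/+ saline mice lie below the IKKβ-/- saline mice in Ndufs3, Ndufa2, Ndufa5, Ndufa13, Ndufc1 and Ndufb6 with no overlap, and also in Ndufaf5.

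In IKKβ+/+ aortas, the comparison of Ang II with saline asks how these genes respond 24 h after infusion began. Of the 46 genes, 2 rose: Ndufaf5 and Ndufb6. This is 4.35% of the members, beside 8.66% of all genes passing in either direction and 4.33% as higher. The log2 fold change was above 0 for 42 of 46 genes (50.7% of all genes), with a median of 0.18 against 0.01 over all genes. An unadjusted p under 0.05 was reached by 5 of the 46 (20.3% of all genes), and in 1 of the 46 (Ndufb6) the groups did not overlap (8.42% of all genes).

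Ndufaf5 (ENSMUSG00000027384.6, chr2:140170649-140203689), an assembly factor that hydroxylates an arginine of Ndufs7, had 136, 140, 122, 114 and 110 counts with saline and 178, 195, 150, 170 and 138 with Ang II (log2 fold change 0.41, SE 0.13, adjusted p = 0.07). A single Ang II mouse, X2359, lay within the saline range. Ndufb6 (ENSMUSG00000071014.10, chr4:40270591-40279421), an accessory subunit of the membrane arm, had 425, 414, 328, 411 and 360 counts with saline and 521, 512, 452, 591 and 483 with Ang II (log2 fold change 0.40, SE 0.13, adjusted p = 0.0724). Both genes lay at a fold change of about 1.3 (1.33 and 1.32).

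By role, the median was 0.11 for core subunits, 0.21 for accessory subunits and 0.20 for assembly factors, of which all 8 lay above 0. Ndufv2 had the next smallest p (0.31, SE 0.11, adjusted p = 0.115), then Ndufaf4, which acts early in assembly (0.36, SE 0.13, adjusted p = 0.124), and Ndufa8 (0.30, SE 0.11, adjusted p = 0.131). The 4 genes below 0 included Ndufa4l2 (-0.30, SE 0.28), Ndufb4 (-0.39, SE 0.53) and Ndufs1 (-0.04, SE 0.12). Neither call held when X2350, X2352, X2358, X2373, X2376 or X2378 was left out (0 members passed), while 4 passed without X2356 and 5 without X2359. For these fits too, the share of all genes passing is not given. X2356 also stood apart in nerve genes, with 825 counts of Th and 1674 of Dbh, the enzymes of catecholamine synthesis, and a sum over the 8 Schwann cell and neuron markers of 6246 against a median of 409 in its group. X2350 had 98.5 counts of Th and 214 of Dbh. X2352, X2358 and X2359 had 0 to 1.07 of Th and 0 to 3.20 of Dbh. Between the groups, the 8 smooth muscle markers summed to 348603 to 467619 with saline and 479309 to 659899 with Ang II, without overlap. Most of this sum is Acta2, Myh11 and Tagln. Taken singly, Tagln and Cnn1 did not overlap, while Acta2, Myh11, Smtn, Lmod1, Mylk and Myocd did. Myocd had 765 to 3221 counts with saline and 827 to 1604 with Ang II. The 7 endothelial markers summed to 20316 to 35090 against 11104 to 22516. The part of these cells in the values of the members was not tested.

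In IKKβ-/- aortas no member passed between Ang II and saline, where 5.29% of all genes did. The log2 fold change was above 0 for 21 of the 46 genes (49.6% of all genes), the median was -0.01, and 2 had an unadjusted p under 0.05 (17.8% of all genes). In edgeR and DESeq2 also 0 members passed, with 2 at an unadjusted p under 0.05 in each. Ndufaf4 had the smallest p. Its counts were 352, 457, 443 and 362 with saline and 613, 461, 496, 511 and 458 with Ang II, groups that did not overlap (log2 fold change 0.33, SE 0.14, adjusted p = 0.217). It was the only 1 of the 46 whose groups did not overlap, beside 5.29% of all genes. Next were Ndufa13, lower with Ang II (-0.24, SE 0.12, adjusted p = 0.281), Ndufb2 (0.30, SE 0.15) and Ndufaf3, an assembly factor that works with Ndufaf4 (0.32, SE 0.16).

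The effect of Ang II was then compared between the genotypes by the interaction. No gene passed, members included (0% of all genes), and 2 of the 46 had an unadjusted p under 0.05 (11.1% of all genes); edgeR passed 3 and DESeq2 279 genes, 0 of them members, again with 2 members at an unadjusted p under 0.05. The difference was below 0 for 36 of the 46 genes and above 0 for 10 (49.8% of all genes), with a median of -0.18. Ndufaf5 had the smallest p: its log2 change with Ang II was 0.41 in IKKβ+/+ and -0.19 in IKKβ-/- mice, a difference of -0.60 (SE 0.19, adjusted p = 0.282). Its counts in IKKβ-/- mice were 175, 176, 142 and 151 with saline and 134, 130, 161, 133 and 148 with Ang II. Ndufv2 followed (-0.43, SE 0.16, adjusted p = 0.363).

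With Ang II, no member passed between IKKβ-/- and IKKβ+/+ mice, beside 0.128% of all genes. The log2 difference was above 0 for 36 of the 46 (49.1% of all genes) with a median of 0.11, and 1 had an unadjusted p under 0.05 (14.3% of all genes), as by edgeR and DESeq2, which passed 0 members though DESeq2 passed 3.51% of all genes. By limma that gene was Ndufb8, an accessory subunit of the membrane arm, with 770, 950, 1017, 941 and 771 counts in IKKβ+/+ and 873, 868, 1573, 1419 and 1123 in IKKβ-/- mice (log2 difference 0.36, SE 0.15, adjusted p = 0.281). The 2 highest values were those of X2384 and X2385. In none of the 46 did the groups separate (1.54% of all genes). X2384 also had 1156 counts of Ucp1, the defining gene of brown adipocytes, against 0 to 283 in the other mice, and X2384 and X2385 had the highest Adipoq, an adipocyte gene (3350 and 3298). Summed over the 8 white and general adipocyte markers, IKKβ-/- Ang II mice ranged from 2580 to 26004 and IKKβ+/+ Ang II mice from 2777 to 6855. The part of adipose tissue in these values was not tested.

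**Figure D3:**
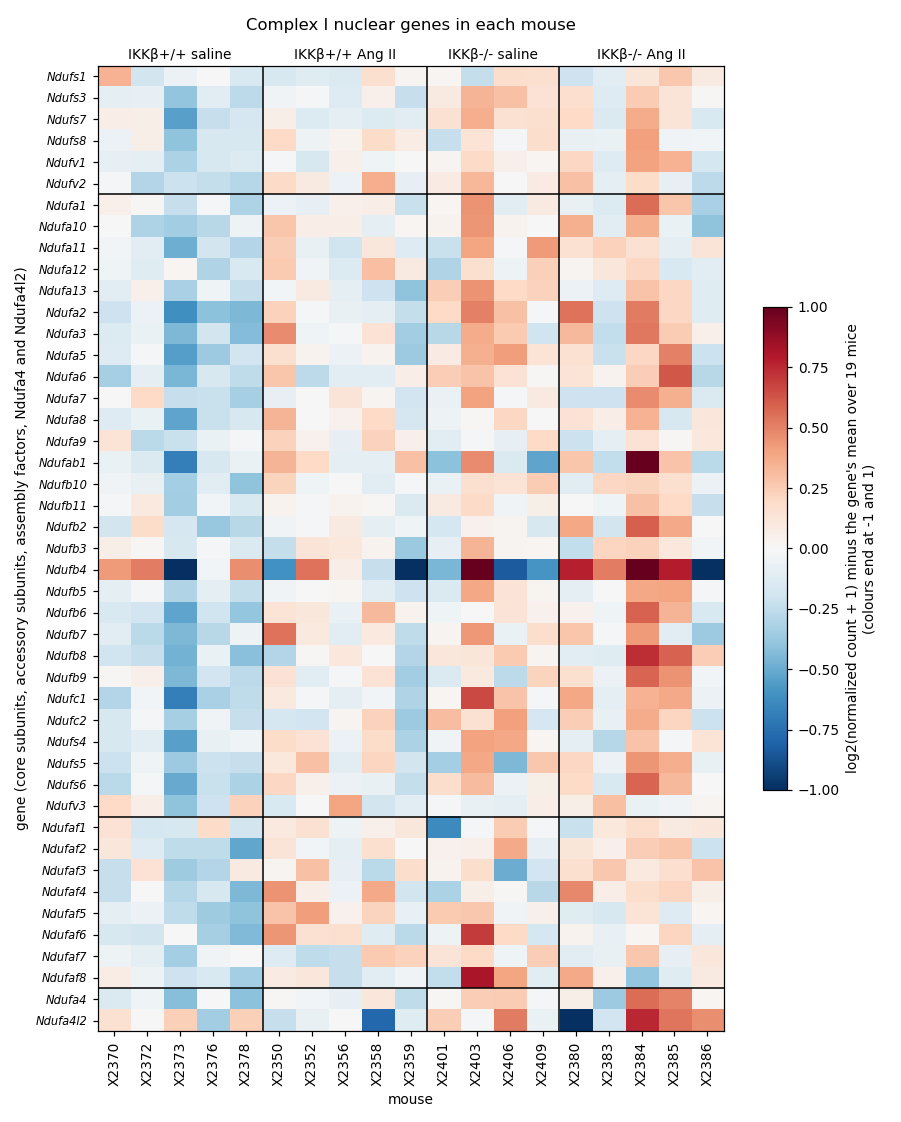
Deviation of log2(normalized count + 1) from each gene's mean over the 19 mice, for 45 of the 46 genes (rows, by role) and the mice (columns, by group); the colour scale ends at -1 and 1. Most genes of a mouse share a sign: X2373 is low, X2384 and X2403 are high across nearly the whole set.

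The members varied together from mouse to mouse. Averaged over the 46 genes, the deviation from each gene's mean ranged from -0.36 in X2373 (IKKβ+/+ saline) to 0.36 in X2384 (IKKβ-/- Ang II), on a log2 scale. By group it was -0.17 ± 0.13 (SD, n = 5) in IKKβ+/+ saline, -0.01 ± 0.09 (n = 5) in IKKβ+/+ Ang II, 0.08 ± 0.14 (n = 4) in IKKβ-/- saline and 0.11 ± 0.18 (n = 5) in IKKβ-/- Ang II mice. All 5 IKKβ+/+ saline mice lay below 0. The lowest IKKβ-/- saline mouse, X2401 at -0.04, was above the highest IKKβ+/+ saline mouse, X2372 at -0.05.

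The length slope moved with these values. Its mean was 0.07 ± 0.05 in IKKβ+/+ saline mice, where all 5 were above 0, 0.01 ± 0.03 in IKKβ+/+ Ang II, -0.05 ± 0.07 in IKKβ-/- saline and -0.05 ± 0.08 in IKKβ-/- Ang II mice, in log2 units per doubling of length. It differed between the saline groups (difference -0.12, exact permutation test, two-sided, p = 0.0238, adjusted over 4 comparisons p = 0.0476) and between Ang II and saline in IKKβ+/+ mice (difference -0.06, p = 0.0238, adjusted p = 0.0476). Between the groups with Ang II (difference -0.06, exact permutation p = 0.159) and between Ang II and saline in IKKβ-/- mice (difference -0.0019, exact permutation p = 0.968) it did not pass an adjusted p of 0.1; the smallest p these tests allow is 0.00794. With 1 mouse left out, the exact p ranged from 0.0179 to 0.0571 between the saline groups and from 0.0159 to 0.0556 for Ang II in IKKβ+/+ mice. The adjusted p then exceeded 0.1 between the saline groups without X2370, X2373, X2376 or X2378, and for Ang II in IKKβ+/+ mice without these or X2350, X2352 or X2358, while the difference between the groups with Ang II (-0.0875) passed without X2383 (exact p = 0.0556).

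With the members left out of the slope, X2373 had the steepest rise with length (0.148) and the lowest members, while X2403 and X2384 had the steepest falls (both -0.12) and the highest members. Across the 19 mice, Pearson's r between this slope and the members' mean was -0.91 and Spearman's rho -0.92. Without X2384 and X2403, the 2 mice farthest from the median slope, r was -0.87. It was -0.96 in the 10 IKKβ+/+ mice and -0.82 in the 9 IKKβ-/- mice. Both measures come from the same libraries, and no p is given.

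**Figure D4:**
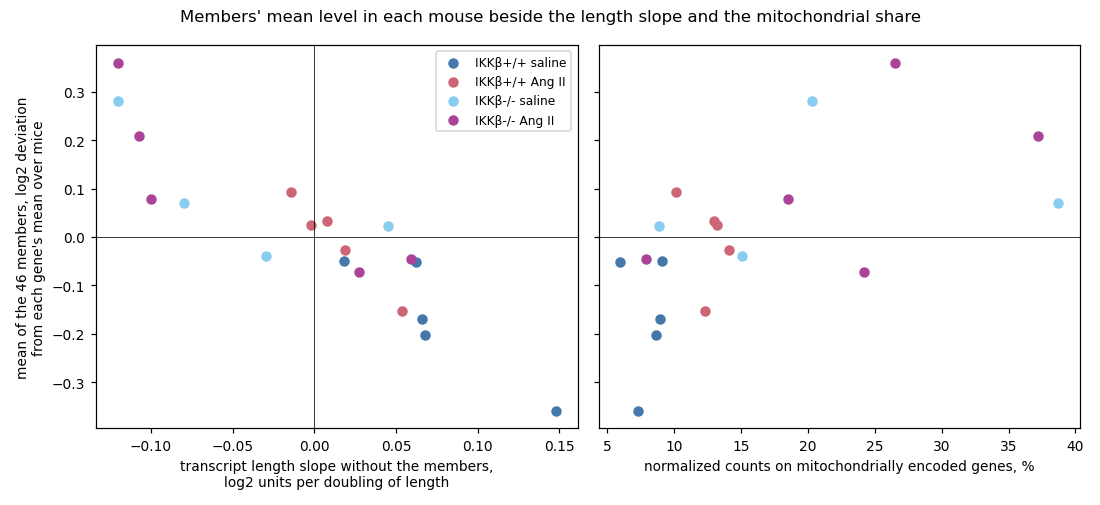
Mean log2 deviation of the 46 genes in each mouse (y axis) against the length slope computed without them (left) and against the percentage of normalized counts on mitochondrially encoded genes (right); points are mice, coloured by group. The points fall from X2384 at the upper left to X2373 at the lower right in the left panel.

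The same trend shows over all tested genes, split into 5 bins of nearly equal size by transcript length. Between the saline groups, the median log2 difference was 0.16 in the bin of the shortest transcripts, then 0.05, -0.02, -0.09 and -0.15 in the bin of the longest. In the shortest bin 6.7% of genes passed as higher, against 2.4% in the longest. The members' median of 0.28 is above that of the shortest bin, whose own median length is 995 nt. For Ang II against saline in IKKβ+/+ mice the medians ran from 0.09 to -0.07, and in IKKβ-/- mice the shortest bin was at -0.0071 and the longest at -0.015.

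After the linear trend with length was removed from each mouse, the members' median between the saline groups was 0.10 in place of 0.28. Then 35 of the 46 genes lay above 0 (52.2% of all genes), 10 had an unadjusted p under 0.05 (16.6% of all genes), and 4 passed (4.49% of all genes). Those 4 were Ndufs3 (0.28, adjusted p = 0.0920), Ndufa2 (0.37, adjusted p = 0.0740), Ndufa13 (0.32, adjusted p = 0.0916) and Ndufc1 (0.38, adjusted p = 0.0740), while Ndufa5 was at 0.28 (adjusted p = 0.189). With each mouse's slope as a covariate in place of this correction, an alternative chosen after seeing the data, 0 members passed and the median was 0.077. The share of all genes passing with that covariate is not given, so the count is not read as particular to the members.

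For Ang II against saline in IKKβ+/+ mice, the corrected median was 0.11, with 35 of 46 above 0 (53.9% of all genes), 5 at an unadjusted p under 0.05 (20% of all genes), and none passing (7.66% of all genes). Ndufaf5 was then at 0.36 (adjusted p = 0.114) and Ndufb6 at 0.29 (adjusted p = 0.148). With Ang II, the corrected median between the genotypes was 0.0039, with 23 of the 46 above 0. For the difference of the Ang II effect between genotypes, the corrected median was -0.10 in place of -0.18, with 13 of the 46 above 0. Over all genes that median was -0.03, with 6911 of 14835 above 0.

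**Figure D5:**
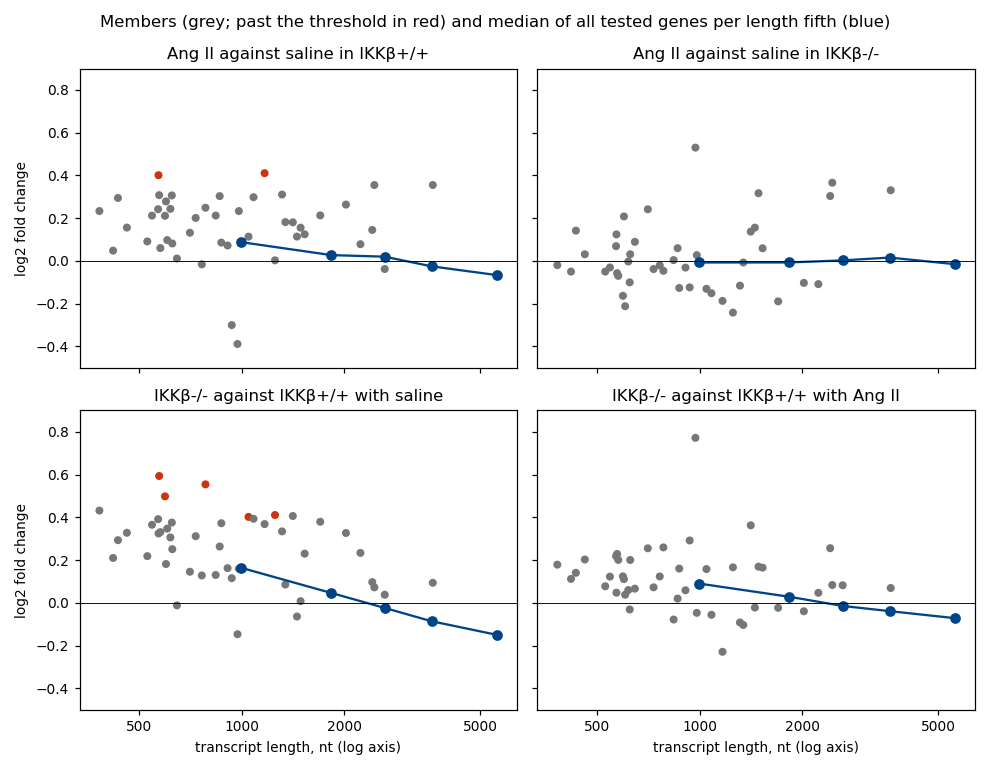
Log2 fold change of 45 of the 46 genes (grey; red where it passed) against transcript length in nt (log axis), in 4 comparisons, with the median of all tested genes in each of 5 length bins in blue. The blue line falls from 0.16 to -0.15 between the saline groups and is flat for Ang II against saline in IKKβ-/- mice.

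The mitochondrially encoded subunits, which form the proton-pumping core in the membrane, were set beside the nuclear ones; 6 of the 7 were tested. None passed in any of the 5 comparisons, but 5 of the 6 had an unadjusted p under 0.05 between the saline groups, where their median log2 difference was 1.43. mt-Nd1 had 96744 to 146769 normalized counts in IKKβ+/+ saline mice, 211648 to 281992 in IKKβ+/+ Ang II mice, 163482 to 1021781 in IKKβ-/- saline mice and 137031 to 967747 in IKKβ-/- Ang II mice. Between the saline groups its values did not overlap (log2 difference 1.51, SE 0.51, adjusted p = 0.117). When each mouse's mitochondrial share entered the fit as a covariate, which was also chosen with the data seen, the nuclear median between the saline groups was 0.15 and 0 members passed. The share of all genes passing in that fit is not given, so this count has no background to be read against.

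Other lists of the respiratory chain were set beside these between the saline groups. Of 39 genes of complexes III and IV and of ATP synthase, whose median length is 642 nt, 12 passed as higher and none as lower, with a median of 0.26 (0.13 after the length trend was removed). They included Atp5e (0.71, SE 0.20, adjusted p = 0.0718) and Atp5h (0.39, SE 0.10, adjusted p = 0.0533) of ATP synthase, Cox8a (0.50, SE 0.13, adjusted p = 0.0579) of complex IV and Uqcrh (0.39, SE 0.10, adjusted p = 0.0596) of complex III, named after their values were seen. Of 8 complex II genes, with a median length of 2049.5 nt, none passed and the median was 0.14. None of 13 tested complex I assembly factors with other names passed (median 0.16), and none of the 14 regulators of mitochondrial biogenesis did, with a median of -0.05. In the other 4 comparisons 2 genes of these lists passed, both with Ang II in IKKβ+/+ mice: Myc, a transcription factor of cell growth (log2 fold change 1.62, SE 0.46, adjusted p = 0.0507), and Cox6a1, a complex IV subunit (0.32, SE 0.11, adjusted p = 0.0961). Myc had 66.2 to 144 normalized counts with saline and 780, 116, 117, 281 and 464 with Ang II. X2352 and X2356 thus lay within the saline range.

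Marker sums of other cell types are given for the saline groups as ranges, with no test. The striated muscle markers (12 listed, 11 in the table) summed to 64.6 to 215 in IKKβ+/+ saline mice and 143 to 350 in IKKβ-/- saline mice, and the 8 smooth muscle markers to 348603 to 467619 against 445636 to 611522. With the striated muscle score as a covariate no member passed in any comparison, and 0.0606% of all genes did between the saline groups. With the smooth muscle score as a covariate 13 members passed between the saline groups and 0 for Ang II in IKKβ+/+ mice. The share of all genes passing with that score is not given, so these counts are not read as particular to the members. The 6 macrophage markers summed to 6703 to 8749 in IKKβ+/+ and 4006 to 5744 in IKKβ-/- saline mice, without overlap. Endothelial markers summed to 20316 to 35090 against 12364 to 26843 and the 6 adventitial fibroblast markers to 108815 to 154348 against 92807 to 124317, with overlap. The sum of the brown adipocyte list is mostly Dio2, so its defining gene is given alone: Ucp1 had 0 to 283 counts in IKKβ+/+ and 0 to 124 in IKKβ-/- saline mice. The part of these cells in the differences was not tested.

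Some of these rows are uncertain as counts of single genes. On the same strand, exons of Ndufb2, Ndufb8 and Ndufb9 overlap those of Gm42420, Gm20538 and Gm49356, and Ndufa12 and Ndufs5 have the pseudogene copies named above, and reads that match both of a pair cannot be given to 1 gene.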

How the data were processed

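RNA was sequenced from 19 aortas as stranded poly(A) libraries. For the deposited table the authors used Trimmomatic 0.35 for trimming, STAR 2.7.1a for alignment and gene read counts (GRCm38, Gencode M25), and DESeq2 1.30.1 to normalize these counts (RSEM gave TPM values, not used here); the values are normalized counts, deposited as a signal that is never negative. They are whole multiples of 1 read in each mouse (100% within 0.05), so reads could be recovered. Here log2(value + 1) of the 14845 genes with at least 10 in at least 4 mice was fitted with limma 3.58.1 (trend, 4 group means, all 19 mice), with Benjamini-Hochberg adjustment over all genes; genes passed at adjusted p under 0.1 and fold change above 1.2, after the study's methods. edgeR 4.0.16 and DESeq2 1.42.0 on the recovered reads, other scalings, filters, covariates, a length correction and each mouse left out were alternatives. Lengths are median exonic lengths of GENCODE M21 basic transcripts, found for 14835 of the genes and all 46 members. Counts and medians cover all 46 members, but values of 1 of them are not reported here. Genes named are the other core subunits, Ndufa4 and Ndufa4l2, those passing, and the 3 with the smallest p in each direction of each comparison, though not all of these are spelled out; others are named for their level, sequence or overlap, after their values were seen. The members and lists were chosen with earlier results of these data known. Scripts were tested on simulated data, with 200 genes changed between Ang II and saline in IKKβ+/+ mice, split evenly between log2 changes of 0.5 and 1. There limma recovered 13 of those at 0.5 and 82 of those at 1, with 8 false calls. Failure to pass therefore does not show that a gene was unchanged. Precision rests on 11382573 to 19906694 reads a mouse, reads on mitochondrially encoded genes included. The nuclear genes rest on fewer reads, above all in X2406 and X2385, the mice with the fewest reads. There the mitochondrially encoded genes took 38.7% and 37.2% of normalized counts.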

Additional observations from a re-analysis of the deposited data

Results flagged for a closer look

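In 9 of 104 checks, 1 mouse of a group stood apart by Dixon's criterion, which chance alone meets in about 1 of 20 groups; the values are normalized counts. X2403 (IKKβ-/- saline) was high in Ndufs7 (548 against 474 to 477 in the other mice of its group), Ndufv1 (1107 against 984 to 1003) and Ndufb4 (37.9 against 7.21 to 9.65). X2384 (IKKβ-/- Ang II) was high in Ndufs8 (652 against 467 to 481), and X2380 of that group was low in Ndufaf1 (154 against 193 to 204). In IKKβ+/+ saline mice, X2370 was high in Ndufv2 (1123 against 929 to 983) and X2373 low in Ndufs4 (372 against 483 to 527). In IKKβ+/+ Ang II mice, X2350 was high in Ndufs7 (444 against 388 to 401) and X2356 in Ndufv3 (1190 against 797 to 904).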

How the results depend on the processing

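No paired analysis was possible because the groups share no mouse numbers. For Ang II in IKKβ+/+ mice, where 2 members passed, the number was 1 with no filter and with the mitochondrial share as a covariate, 5 with DESeq2 and with the brown adipocyte score as a covariate, and 0 at an adjusted p under 0.05, at a fold change above 1.5, with the striated or smooth muscle score or the length slope as a covariate, and with the linear or smooth length trend removed. Between the saline groups, where 5 passed, it was 9 with only the groups compared, 10 with array quality weights, 12 with DESeq2, 8 with the brown adipocyte score, 13 with the smooth muscle score, 3 with the smooth length trend removed, 1 at a fold change above 1.5, and 0 at an adjusted p under 0.05, with the striated muscle score, the length slope or the mitochondrial share as a covariate, or without X2385 and X2406. The median there was 0.10 with the linear and 0.087 with the smooth length trend removed, and 0.077 with the slope as a covariate. The cause of these changes was not tested. For most of these settings the share of all genes passing is given only as the range at the end. The counts are therefore not read as particular to the members. The smooth trend, the slope and mitochondrial covariates and the fit without X2385 and X2406 were chosen after seeing the data. Leaving out 1 mouse at a time gave 0 to 5 members for Ang II in IKKβ+/+ mice (median 0.13 to 0.22), 0 to 7 between the saline groups (median 0.20 to 0.31), and 0 in the other comparisons, whose medians ranged from -0.06 to 0.05 for Ang II in IKKβ-/- mice, from -0.24 to -0.12 for the difference of the effects and from 0.07 to 0.15 between the genotypes with Ang II. The slope difference ranged from -0.0736 to -0.0411 for Ang II in IKKβ+/+ mice, from -0.149 to -0.0942 between the saline groups, from -0.0286 to 0.0285 for Ang II in IKKβ-/- mice and from -0.0875 to -0.0427 between the genotypes with Ang II. With 1 mouse fewer, the smallest p these exact permutation tests allow is larger only in the comparisons that use the IKKβ-/- saline mice. In the comparisons without those mice it stays the same. The median for Ang II in IKKβ-/- mice was 0.007 by edgeR, so its sign depends on the tool. Without X2385 and X2406 the members' median between the saline groups was 0.27. Apart from leaving out single mice, over all genes 1.4% to 14% passed for Ang II in IKKβ+/+ mice and 0.0606% to 12.8% between the saline groups; for the difference of the effects 0 genes passed by limma, 279 by DESeq2 and 76 with array quality weights, and between the genotypes with Ang II 19 by limma and 521 by DESeq2.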
